A study of Mus musculus with 6 samples.

Results

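Hepatic stellate cells are the vitamin A-storing pericytes of the liver, lying between the hepatocytes and the sinusoidal endothelium. At rest they hold retinyl esters in lipid droplets, and after injury they become contractile, matrix-producing myofibroblasts. They are the main source of scar collagen in fibrotic liver and also release hepatocyte growth factor, so their transcripts can be read beside those of the hepatocytes they surround. The 9 genes described here, Dcn, Lum, Lrat, Reln, Des, Ecm1, Hgf, Pdgfrb and Ngfr, are transcripts by which stellate cells are commonly recognised. They were taken by gene symbol from the 25718 genes of the deposited table, and all 9 were found and passed the filter on low counts.

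RNA came from primary hepatocytes of WT and S100a16KO+/- mice, all fed alcohol, 3 libraries of each. In the labels the latter carry the name S100A16 knockdown, whereas the study describes heterozygous knockout mice, since homozygous loss was lethal. The deletion was made with EIIa-Cre, which acts in the early embryo, on a largely C57BL/6 background, so stellate cells of these mice would carry it as well as hepatocytes. Per the study's methods, male mice of 8 to 10 weeks received a control liquid diet for 5 days and a 5% ethanol diet for 10 days. They were then given 1 gavage of ethanol at 5 g/kg and were sampled 9 h later. There was no group without ethanol among these libraries, so the values say nothing about the effect of alcohol itself. Livers were digested with collagenase and hepatocytes were separated on Percoll, a density gradient that leaves a share of other liver cells behind. Neither pooling of mice nor a batch is named in the sources used here, and where libraries are not separate mice the p-values measure only the spread between libraries.

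The libraries held between 67658095 and 71807834 estimated counts, and 1 sequenced fragment was worth about 4 of these counts. Levels are given as CPM, counts scaled to library size after TMM normalisation, for comparisons between libraries, and as FPKM, which is also scaled for transcript length, for comparisons between genes. S100a16, the targeted gene, fell from 15.3 to 5.80 CPM on average (log2 fold change -1.40, standard error 0.11, adjusted p = 4.14e-07, edgeR's quasi-likelihood test). On the second principal component of all tested genes, WT replicate 1 and S100a16KO+/- replicate 2 lay apart from the other libraries, and counts of called genes are therefore also given without them. Hepatocyte markers, 15 genes that include Alb and Hnf4a, added up to between 145687 and 160867 CPM in every library, so the labelled cell type dominated the RNA, and stellate transcripts were a small addition to it.

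Of the 9 stellate transcripts, 6 rose in S100a16KO+/- hepatocytes (Dcn, Lum, Lrat, Reln, Ecm1 and Hgf), 0 fell and 3 did not pass the test (Des, Pdgfrb and Ngfr) at an adjusted p under 0.05. Among all 15957 tested genes, 11.6% were called higher and 11.2% lower by the same rule. The median log2 fold change was 0.63 over the 9 genes and 0.01 over all tested genes. The changes ranged from -0.09 for Ngfr to 1.41 for Lum, and 8 of the 9 were above 0. For 7 of the 9, every S100a16KO+/- library lay above every WT library, which was the case for 19.2% of the tested genes. By the rule of the study's methods, which asks for a 2-fold change at an unadjusted p under 0.05, Lum alone was called higher and 0 lower (2.90% and 1.62% of the tested genes). Without WT replicate 1 and S100a16KO+/- replicate 2, 6 of the 9 were again called higher. In bulk RNA of this kind, more stellate cells in a preparation and more of a transcript per stellate cell cannot be told apart.

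The 250 bases before the annotated start are shown for Lrat, Reln, Ecm1 and Hgf, the genes that rose and whose start is in the RefSeq promoter table used, so that these transcripts can be compared at their start sites. Dcn and Lum have no entry there. Hgf has 2 entries, of which the upstream one is printed. Coordinates are on GRCm38.p6, the sequences run 5′ to 3′ on the strand of the gene, and capitals mark every match, on either strand, to the TATA box letters TATAAA, the CCAAT box, the GC box core GGGCGG, the E-box CAGCTG or the homeodomain core TAATTA. No matches overlapped each other in these windows.
Lrat promoter, chr3:82903975-82904224, minus strand: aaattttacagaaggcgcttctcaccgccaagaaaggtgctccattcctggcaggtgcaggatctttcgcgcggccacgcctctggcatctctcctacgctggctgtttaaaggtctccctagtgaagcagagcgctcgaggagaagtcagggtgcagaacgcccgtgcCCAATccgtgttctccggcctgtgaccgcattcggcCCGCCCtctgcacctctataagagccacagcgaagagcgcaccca
Reln promoter, chr5:22344706-22344955, minus strand: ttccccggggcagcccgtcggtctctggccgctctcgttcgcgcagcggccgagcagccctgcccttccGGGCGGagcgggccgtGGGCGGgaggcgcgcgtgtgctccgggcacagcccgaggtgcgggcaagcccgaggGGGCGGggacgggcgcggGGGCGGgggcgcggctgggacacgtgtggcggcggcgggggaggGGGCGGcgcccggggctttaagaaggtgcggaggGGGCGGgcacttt
Ecm1 promoter, chr3:95739570-95739819, minus strand: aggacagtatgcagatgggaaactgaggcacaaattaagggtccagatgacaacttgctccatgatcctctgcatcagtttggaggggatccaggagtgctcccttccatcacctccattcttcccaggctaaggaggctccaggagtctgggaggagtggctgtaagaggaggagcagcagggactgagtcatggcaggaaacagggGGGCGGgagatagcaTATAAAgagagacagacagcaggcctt
Hgf promoter, chr5:16553245-16553494, plus strand: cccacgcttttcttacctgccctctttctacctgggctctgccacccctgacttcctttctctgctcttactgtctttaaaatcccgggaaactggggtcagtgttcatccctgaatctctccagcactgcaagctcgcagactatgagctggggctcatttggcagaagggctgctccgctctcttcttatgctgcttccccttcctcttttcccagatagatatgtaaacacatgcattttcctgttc
GGGCGG was in 3 of the 4 windows. Reln held GGGCGG at 6 positions in a window of 80% G and C. Lrat and Ecm1 held it once each, in windows of 59.2% and 54% G and C, and Hgf, at 50.8%, held none of the 5 motifs. The window of the other Hgf entry, from 16553651 to 16553900, held none of them either. GGGCGG was present in 32.7% of all 32851 windows of this length. TATAAA, found in Ecm1 with its first base 27 bases before the start, was present in 12.4% of the windows, and CCAAT, found in Lrat 81 bases before the start, in 33.8%. The E-box, present in 13% of the windows, and the homeodomain core, present in 4.84%, were in none of these 4. Absence of a match says only that these letters are not in the window.

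Dcn encodes decorin and Lum encodes lumican, small leucine-rich proteoglycans that bind collagen fibrils and set their spacing. Decorin also binds TGF-beta. The genes lie on chromosome 10, Dcn from 97479609 to 97518143 and Lum from 97565128 to 97572703, both on the plus strand, with 46984 bases and no other gene of the table between them. Dcn had 25.4, 23.7 and 23.8 CPM in WT replicates 1, 2 and 3 and 45.0, 51.9 and 44.7 CPM in S100a16KO+/- replicates 1, 2 and 3. The WT libraries lay within a narrow band, and all S100a16KO+/- libraries were far above it. Dcn thus rose from 24.3 ± 0.993 to 47.2 ± 4.09 CPM (SD over 3 libraries each), with a fitted log2 change of 0.96 ± 0.07 (SE) at an adjusted p of 2.64e-07 in edgeR. Lum, a much rarer transcript, had 0.791, 0.696 and 0.584 CPM in the WT replicates and 2.24, 1.6 and 1.67 CPM in the S100a16KO+/- replicates. Its counts correspond to about 10 to 14 fragments per WT library and 26 to 39 per S100a16KO+/- library, and the groups did not overlap. The fitted log2 change of Lum was 1.41 ± 0.28 (SE) at an adjusted p of 0.0019 in edgeR, with a 95% interval from 0.81 to 2.00, so its larger point estimate was also the less precise of the pair.

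Among 12 further small leucine-rich proteoglycans in the table, 6 were tested, 2 rose and 0 fell, with a median log2 fold change of 0.48. Bgn, which encodes biglycan, the closest relative of decorin, rose from 14.7 ± 1.39 to 24.0 ± 2.18 CPM (log2 fold change 0.70). Prelp rose from 8.46 ± 1.29 to 14.2 ± 0.693 CPM (log2 fold change 0.75). Fmod, Ogn, Aspn, Epyc and Nyx were at or under 12 counts in every library, the level that a count of 0 allows when 3 fragments are taken as the limit, which covers counting error only.

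Ecm1, extracellular matrix protein 1, is a secreted glycoprotein that keeps latent TGF-beta from being activated in the liver, and hepatocytes express it as well as stellate cells. Its place is chromosome 3 from 95734147 to 95739569, minus strand. Ecm1 had 20.4, 18.7 and 18.4 CPM in the WT replicates and 26.1, 34.1 and 26.3 CPM in the S100a16KO+/- replicates. No library overlapped, and S100a16KO+/- replicate 2 was the highest, as it was for Dcn. Ecm1 rose from 19.1 ± 1.09 to 28.8 ± 4.54 CPM, a fitted log2 change of 0.59 ± 0.10 (SE) at an adjusted p of 0.000646 in edgeR. Because it is shared with hepatocytes, the summed level of the 9 genes was also taken without it. The sum went from 61.5 to 104.7 CPM with Ecm1, a ratio of 1.70, and from 42.3 to 75.9 CPM without it, a ratio of 1.79. Without Dcn the ratio was 1.55, and without both it was 1.59.

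**Figure D1:**
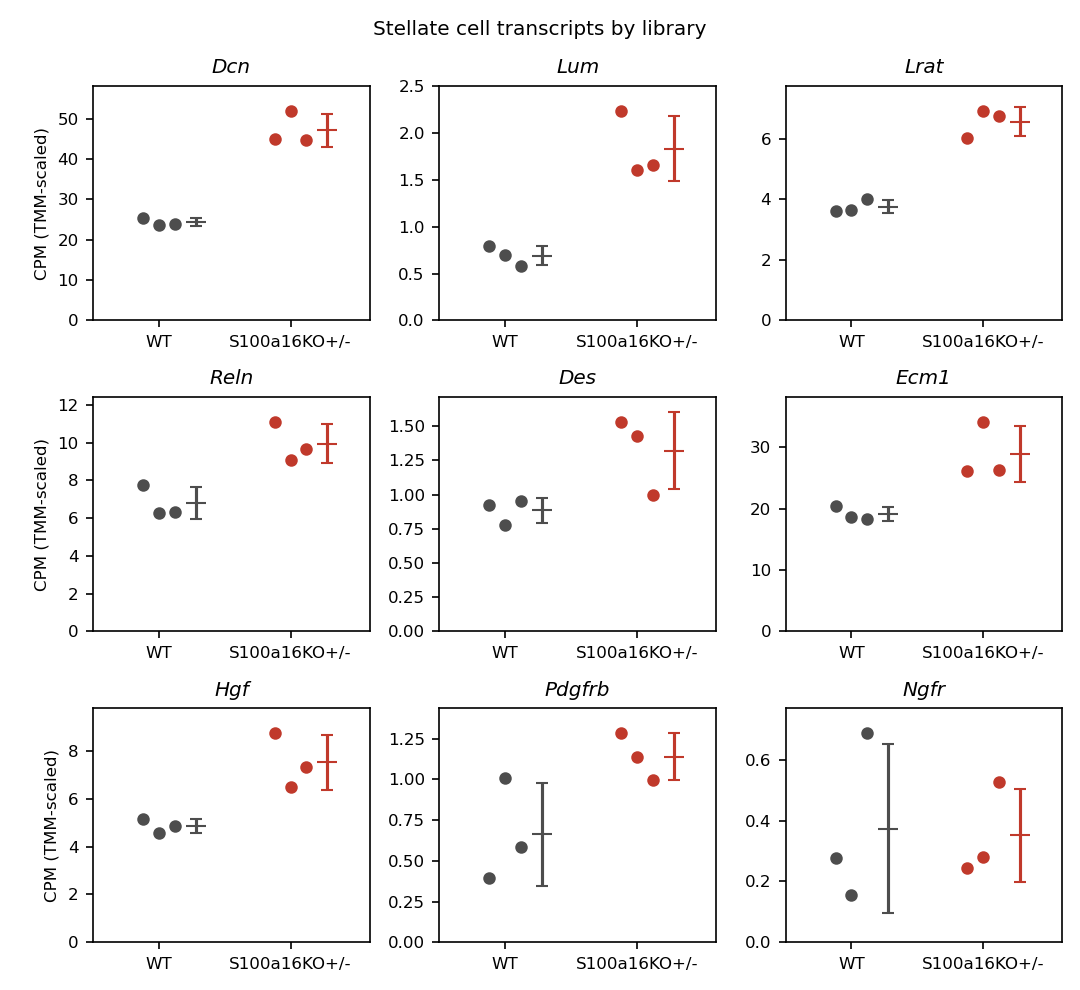
CPM after TMM scaling (vertical axes, from 0) of the 9 stellate cell transcripts in the WT (grey) and S100a16KO+/- (red) libraries, 1 point per library, with the mean and SD over 3 libraries to the right of each group. The groups are apart for Dcn, Lum, Lrat, Reln, Des, Ecm1 and Hgf and overlap for Pdgfrb and Ngfr.

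Lrat encodes lecithin retinol acyltransferase, the enzyme that esterifies retinol for storage in stellate lipid droplets, and it marks quiescent stellate cells. Its place is chromosome 3 from 82892579 to 82903973, minus strand. Lrat had 3.62, 3.65 and 4.0 CPM in the WT replicates and 6.02, 6.92 and 6.78 CPM in the S100a16KO+/- replicates. The groups were well apart, with no library between them. Lrat rose from 3.76 ± 0.214 to 6.57 ± 0.486 CPM, a fitted log2 change of 0.81 ± 0.14 (SE) at an adjusted p of 0.000585 in edgeR.

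The other genes of retinoid storage and metabolism did not move with Lrat as a group. Of 28 in the table, 24 were tested, 7 rose and 9 fell, and the median log2 fold change was -0.15. Cyp26b1, which clears retinoic acid, rose from 46.1 ± 2.21 to 93.6 ± 4.48 CPM (log2 fold change 1.02, standard error 0.06, adjusted p = 2.11e-08). Pnpla2, the triglyceride lipase ATGL, rose by a log2 fold change of 0.62, and Rbp4, the retinol carrier of plasma, by 0.17. Ces1d, a carboxylesterase, fell by 1.18 on the log2 scale, Aldh1a1, which makes retinoic acid, by 0.66, and Ttr, the plasma partner of RBP4, by 0.33. Rbp4, Ttr and Ces1d are abundant hepatocyte products, at 5146, 4129 and 816.7 CPM in WT, far above Lrat. Leaving out WT replicate 1, WT replicate 2 or S100a16KO+/- replicate 1 brought the number that rose to 4, and leaving out WT replicate 1 and S100a16KO+/- replicate 2 together brought the number that fell to 12.

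**Figure D2:**
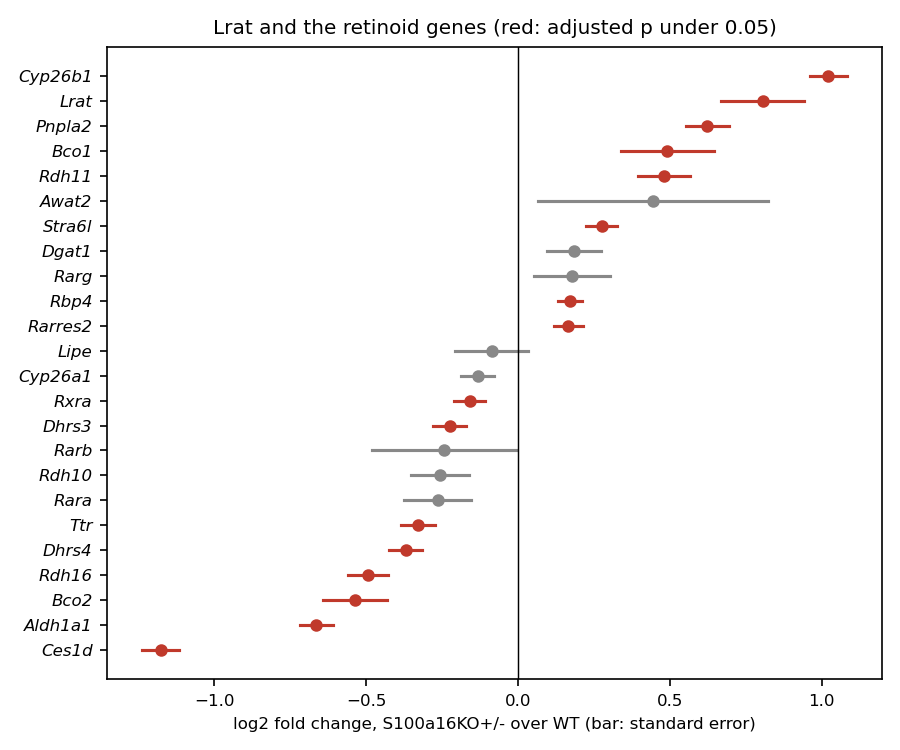
Log2 fold change of S100a16KO+/- over WT (horizontal axis) for Lrat and the tested genes of retinoid storage and metabolism (1 of the 24 is not drawn), with the standard error of the edgeR fit as a bar. Red marks an adjusted p under 0.05. Lrat lies near the upper end at 0.81, beside Cyp26b1 at 1.02, while Aldh1a1 and Ces1d lie at the lower end.

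Hgf encodes hepatocyte growth factor, a mitogen for hepatocytes that is made by stellate and sinusoidal endothelial cells and acts through the receptor MET. Its place is chromosome 5 from 16553495 to 16620152, plus strand. Hgf had 5.17, 4.57 and 4.85 CPM in the WT replicates and 8.73, 6.47 and 7.33 CPM in the S100a16KO+/- replicates. All S100a16KO+/- libraries were above the WT libraries, with S100a16KO+/- replicate 2 the nearest to them. Hgf rose from 4.86 ± 0.297 to 7.51 ± 1.14 CPM, a fitted log2 change of 0.63 ± 0.14 (SE) at an adjusted p of 0.00483 in edgeR. On log2(FPKM + 1) with limma the adjusted p of Hgf was 0.0508, and its log2 fold change on that scale was 0.27.

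Among 15 genes for HGF activation, its receptor and the related MST1 system, 13 were tested, 3 rose and 1 fell, with a median log2 fold change of 0.01. Met, the receptor gene, fell by 0.16 on the log2 scale (69.1 ± 1.24 to 61.9 ± 1.81 CPM, adjusted p = 0.0469). Hgfac, which encodes a protease that cleaves pro-HGF, changed by 0.16 on the log2 scale (adjusted p = 0.0570), and Hpn, the protease hepsin, one of -0.02 (adjusted p = 0.863). Plg, the plasminogen gene, rose by 0.25, F11 by 0.47 and Mst1 by 0.20, each from edgeR. The ligand gene was thus higher and the receptor gene slightly lower in S100a16KO+/- libraries.

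Reln encodes reelin, a large secreted glycoprotein best known from neuronal migration, which stellate cells make in the liver. It covers chromosome 5 from 21884454 to 22344702, minus strand, with 65 exons in its longest transcript. Reln had 7.78, 6.29 and 6.31 CPM in the WT replicates and 11.1, 9.10 and 9.66 CPM in the S100a16KO+/- replicates. The groups did not overlap, but WT replicate 1 and S100a16KO+/- replicate 2 came near each other. Reln rose from 6.79 ± 0.850 to 9.95 ± 1.02 CPM, a fitted log2 change of 0.55 ± 0.13 (SE) at an adjusted p of 0.00564 in edgeR, and of 0.71 without those 2 libraries. The call was lost with limma on log2(FPKM + 1) and on log2(FPKM + 0.1), where the adjusted p was 0.116 and 0.139. Of 10 genes of the reelin pathway, 8 were tested, 2 rose (Fyn and Nde1) and 1 fell. The last was Vldlr, a reelin and lipoprotein receptor, which fell from 10.5 ± 0.689 to 7.25 ± 0.721 CPM (log2 fold change -0.54, adjusted p = 0.00325). Dab1, the adaptor of reelin signalling in neurons, had no more than 3 counts in any library.

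Des encodes desmin, the muscle-type intermediate filament protein long used to stain rodent stellate cells. It had 0.923, 0.781 and 0.950 CPM in the WT replicates and 1.53, 1.43 and 1.0 CPM in the S100a16KO+/- replicates, about 14 to 26 fragments per library. The groups were apart by a small margin, and the log2 fold change of 0.58 ± 0.29 (SE, adjusted p 0.183) did not pass the test. Its 95% interval ran from -0.05 to 1.20, which includes changes as large as those of Dcn and Lrat. Of 13 other intermediate filament and linker genes, 12 were tested, 4 rose and 0 fell. Vim (vimentin) and Nes (nestin), which stellate cells also express, rose by log2 fold changes of 0.66 and 0.78, and Krt18, a keratin of hepatocytes, rose by 0.57.

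Pdgfrb encodes the PDGF receptor beta, the receptor through which PDGF drives stellate cell proliferation. It had 0.395, 1.01 and 0.584 CPM in the WT replicates and 1.28, 1.14 and 1.0 CPM in the S100a16KO+/- replicates. WT replicate 2 reached the level of the S100a16KO+/- libraries, and the log2 fold change was 0.78 ± 0.37 (SE, adjusted p 0.155), with a 95% interval from -0.01 to 1.57. Without WT replicate 2 it was 1.21 (adjusted p = 0.0443), and it did not pass when any other single library was left out. Of 8 genes of PDGF ligands and their other receptors and co-receptors, 1 rose and 1 fell. Pdgfra, the alpha receptor, rose from 0.838 ± 0.166 to 1.78 ± 0.0814 CPM (log2 fold change 1.09, adjusted p = 0.00787), and Lrp1, an abundant co-receptor, fell by 0.18 on the log2 scale. The ligand genes Pdgfa, Pdgfb, Pdgfc and Pdgfd had log2 fold changes between -0.04 and 0.77 and did not pass the test.

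Ngfr encodes the p75 neurotrophin receptor, which stellate cells carry and which can trigger their death. It was the rarest of the 9, with 0.278, 0.156 and 0.687 CPM in the WT replicates and 0.245, 0.280 and 0.528 CPM in the S100a16KO+/- replicates. These values stand for about 3 to 12 fragments per library, and the groups overlapped throughout. The log2 fold change of -0.09 ± 0.62 (SE, adjusted p 0.943) came with a 95% interval from -1.41 to 1.24, which includes a rise or a fall as large as the rise of Dcn. Its sign turned when WT replicate 3 was left out (0.69), and also without S100a16KO+/- replicate 1 (0.11) or S100a16KO+/- replicate 2 (0.05). Of 12 neurotrophin and receptor genes in the table, 10 were tested and 2 rose. These were Ntf3, the neurotrophin-3 gene, from 0.592 ± 0.189 to 1.9 ± 0.386 CPM (log2 fold change 1.68, adjusted p = 0.00113), and Maged1, a p75-binding protein gene, by a log2 fold change of 0.40.

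**Figure D3:**
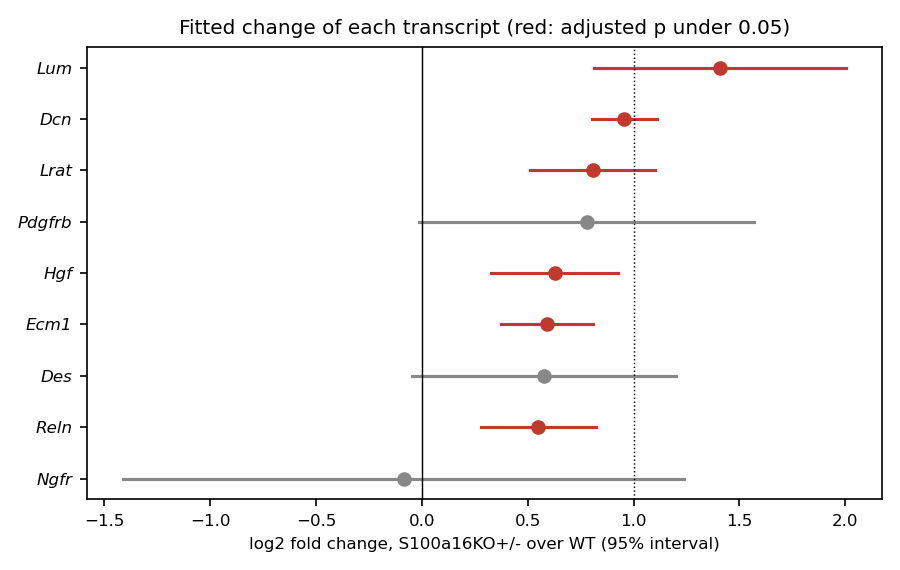
Log2 fold change of S100a16KO+/- over WT for the 9 transcripts (points) with the 95% interval of the edgeR fit (lines). Red marks an adjusted p under 0.05, the solid line no change and the dotted line a 2-fold rise. The intervals of Des, Pdgfrb and Ngfr include 0, and that of Ngfr is the widest, from -1.41 to 1.24.

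Levels between the genes were compared as FPKM. In WT hepatocytes Ecm1 was the highest at 6.75 ± 0.134 FPKM (SD, n = 3), followed by Dcn at 3.71 ± 0.0214, and these were apart from each other and from all others. Lrat at 0.626 ± 0.0537 and Hgf at 0.599 ± 0.0135 FPKM came next, with overlapping ranges. Reln at 0.253 ± 0.0202, Lum at 0.251 ± 0.0299 and Des at 0.206 ± 0.0171 FPKM formed a chain of overlapping neighbours, and Pdgfrb at 0.109 ± 0.0556 and Ngfr at 0.0961 ± 0.0739 FPKM overlapped at the bottom. In S100a16KO+/- hepatocytes the order was the same but for Lum, which at 0.671 ± 0.146 FPKM stood above Reln at 0.376 ± 0.0504 with no overlap and within reach of Hgf at 0.937 ± 0.174 FPKM. Dcn made up from 39.3% to 39.8% of the summed CPM of the 9 genes in the WT libraries and from 44.0% to 46.0% in the S100a16KO+/- libraries. Ecm1 held from 30.5% to 31.5% in WT and from 25.6% to 30.2% in S100a16KO+/- libraries.

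**Figure D4:**
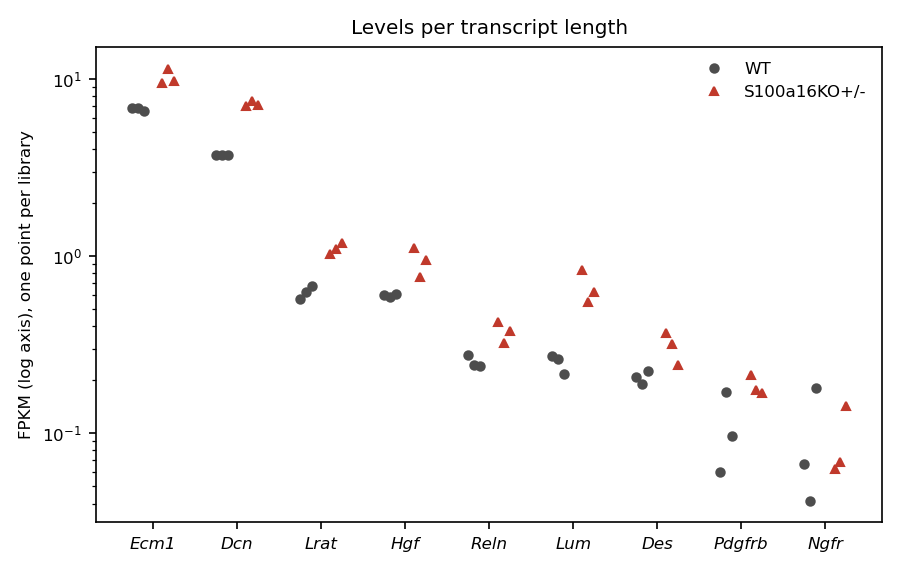
FPKM on a log axis for each of the 9 transcripts, ordered by the WT mean, with 1 point per library (grey circles WT, red triangles S100a16KO+/-). Ecm1 and Dcn lie above 3 FPKM in every library, and Pdgfrb and Ngfr lie at the bottom with the widest WT spread.

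Other markers of the same cell type were read beside the 9. Of 27 further stellate cell markers, all tested, 13 rose, 4 fell and 10 did not pass the test, with a median log2 fold change of 0.50. Without WT replicate 1 and S100a16KO+/- replicate 2 the numbers were 10 and 3. Transcription factor gene Hand2 rose from 0.594 ± 0.0149 to 1.5 ± 0.211 CPM (log2 fold change 1.33, adjusted p = 0.0038), and Bmp5 and Pdgfra rose by log2 fold changes of 1.11 and 1.09. Colec11, a collectin made by stellate cells, rose by 0.61, Rgs5, a pericyte regulator of G-protein signalling, by 0.68, and Sparc by 0.48. Cxcl12, Steap4 and Nt5e were among the 4 that fell. Cxcl12, a chemokine gene, was at 202.8 ± 3.50 and 168.6 ± 1.75 CPM, and Steap4, a metalloreductase gene, at 41.5 ± 2.14 and 25.9 ± 1.9 CPM in WT and S100a16KO+/-. Through Cxcl12 and the other abundant members that fell, the summed CPM of this list was lower in S100a16KO+/- libraries (442.3 to 472.3) than in WT libraries (473.9 to 480.4). Its median member was higher. Cxcl12 and Tlcd4, the latter at 144.3 CPM in WT and 144.6 CPM in S100a16KO+/-, led the sum. Which cells of the preparation these transcripts came from was not tested. Gfap and Lhx2, both classical stellate markers, overlapped between genotypes at under 1 CPM.

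Markers of activated stellate cells and myofibroblasts were mostly rare transcripts, with Fn1, Tgfb1 and Spp1 the highest at 1320, 5.10 and 2.67 CPM in WT. Lox alone among them never exceeded 12 counts. Of 19 in the table, 17 were tested, 3 rose, 1 fell and 13 did not pass, with a median log2 fold change of 0.43. Of the tested genes, 15 lay above 0 and 2 below. Acta2, the smooth muscle actin gene of myofibroblasts, was at 0.534 ± 0.469 CPM in WT and 0.716 ± 0.138 CPM in S100a16KO+/- (adjusted p = 0.65). Col1a1 was at 0.387 ± 0.0662 and 0.420 ± 0.226 CPM (log2 fold change 0.12, adjusted p = 0.914). The other collagen genes listed, Col1a2, Col3a1 and Col5a1, had larger log2 fold changes of 0.57, 0.74 and 0.91. They did not pass the test either (adjusted p = 0.198, 0.140 and 0.0828 in edgeR). Ccn2, a matricellular growth factor gene, rose from 0.515 ± 0.173 to 1.85 ± 0.495 CPM (log2 fold change 1.84, adjusted p = 0.00104). Tgfb1 rose from 5.10 ± 0.600 to 9.41 ± 1.19 CPM (log2 fold change 0.88) and Fn1, the fibronectin gene that hepatocytes express strongly, from 1320 ± 25.5 to 1663 ± 90.9 CPM (log2 fold change 0.33). Tpm2, a muscle tropomyosin gene, fell by 0.86 on the log2 scale, and this call was lost when any library other than WT replicate 3 was left out. Of 17 tested genes of TGF-beta ligands and their activation, 4 rose (Tgfb1, Ltbp4, Eng and Smad7) and 1 fell (Tgfbr1), with a median of 0.34.

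Transcripts of other liver cells moved as well, and were set beside the stellate genes. Sinusoidal endothelial markers rose in 14 of 16 cases and 1 fell (Lyve1), with a median log2 fold change of 0.58. Their summed level was 436.4 to 458.7 CPM in WT and 641.7 to 685.7 CPM in S100a16KO+/- libraries, a ratio of 1.47. Stab2, Kdr, Ehd3 and Eng, which had the highest mean CPM of them, had log2 fold changes of 0.41, 0.61, 0.62 and 0.45. By FPKM, Clec4g was the highest of the list in both genotypes, with a log2 fold change of 0.69. Among the 14 that rose, the log2 fold changes ran from 0.39 for Cdh5 to 0.73 for Fcgr2b. The counts of 14 higher and 1 lower did not change under any alternative tried. As a share of the endothelial sum, the 9 stellate transcripts stood at 14.1%, 13.1% and 13.8% in the WT replicates and at 15.9%, 16.5% and 15.2% in the S100a16KO+/- replicates. The ratio was thus higher in every S100a16KO+/- library, by a smaller margin than the stellate sum itself.

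Of 18 Kupffer cell and macrophage markers, 7 rose and 1 fell, 15 lay above 0 and the median log2 fold change was 0.25, and without WT replicate 1 and S100a16KO+/- replicate 2 the number that rose was 4. Their summed level was 342.9 to 384.2 CPM in WT and 319.4 to 348.5 CPM in S100a16KO+/- libraries. This sum was led by Slc40a1, the iron exporter ferroportin, the gene that fell, from 154.1 to 90.5 CPM. Without it, a choice made after the data were seen, the sum was 197.5 to 226.0 CPM in WT and 229.3 to 249.9 CPM in S100a16KO+/- libraries and thus higher in all of the latter. Clec4f, which marks resident Kupffer cells, was at 34.4 ± 3.00 and 35.3 ± 2.74 CPM (adjusted p = 0.795). Gpnmb and Trem2, genes of lipid-laden macrophages, rose by log2 fold changes of 3.32 and 1.81 from under 0.3 CPM. As a share of the whole sum, the stellate transcripts stood at 18.9%, 15.5% and 16.8% in the WT replicates and at 29.3%, 34.8% and 31.0% in the S100a16KO+/- replicates. As a share of the sum without Slc40a1 they stood at 32.4%, 26.3% and 30.5% in the WT replicates and at 40.9%, 46.8% and 43.1% in the S100a16KO+/- replicates.

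Portal fibroblasts and smooth muscle cells can also express Dcn, Lum or Des. Portal fibroblast and mesothelial markers were 14 genes in the table. They added up to 4.97 to 7.01 CPM in WT and 7.95 to 8.28 CPM in S100a16KO+/- libraries. This was more than Lum or Des and higher in every S100a16KO+/- library. Entpd2 led the sum, at 2.76 of 5.69 CPM in WT and 4.51 of 8.17 CPM in S100a16KO+/- on average. The sum without it was not taken. Of the 9 tested, 2 rose (Entpd2 and Cd248), and the median log2 fold change was 0.50. Gli1, Mfap4 and Wt1 of this list never exceeded 12 counts. Of 7 tested vascular smooth muscle markers, which include Des, 0 rose and 1 fell (Mylk). Their median log2 fold change was 0.58, with 6 above 0. Myh11, their defining myosin gene, was at 0.253 ± 0.287 and 0.528 ± 0.0971 CPM. Mylk carried their sum of 82.7 to 85.5 CPM in WT and 63.9 to 71.1 CPM in S100a16KO+/- libraries, and without it the sum was 3.20 to 6.53 and 6.10 to 7.86 CPM, with overlap. Of 6 tested cholangiocyte markers 0 rose and 1 fell, and of 10 lymphocyte and 4 neutrophil markers 0 were called in either direction. The median log2 fold changes of these lists, in that order, were -0.10, -0.20 and 0.55, and all 4 neutrophil markers lay above 0. The tested erythroid genes all fell (5 of 5), from a sum of 214.8 to 252.2 CPM in WT to 23.4 to 26.3 CPM in S100a16KO+/- libraries. Hepatocyte markers split, with 3 of 15 higher, 4 lower and a median of -0.08. The part of the endothelial and other cell markers in the rise of the stellate transcripts was not tested.

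**Figure D5:**
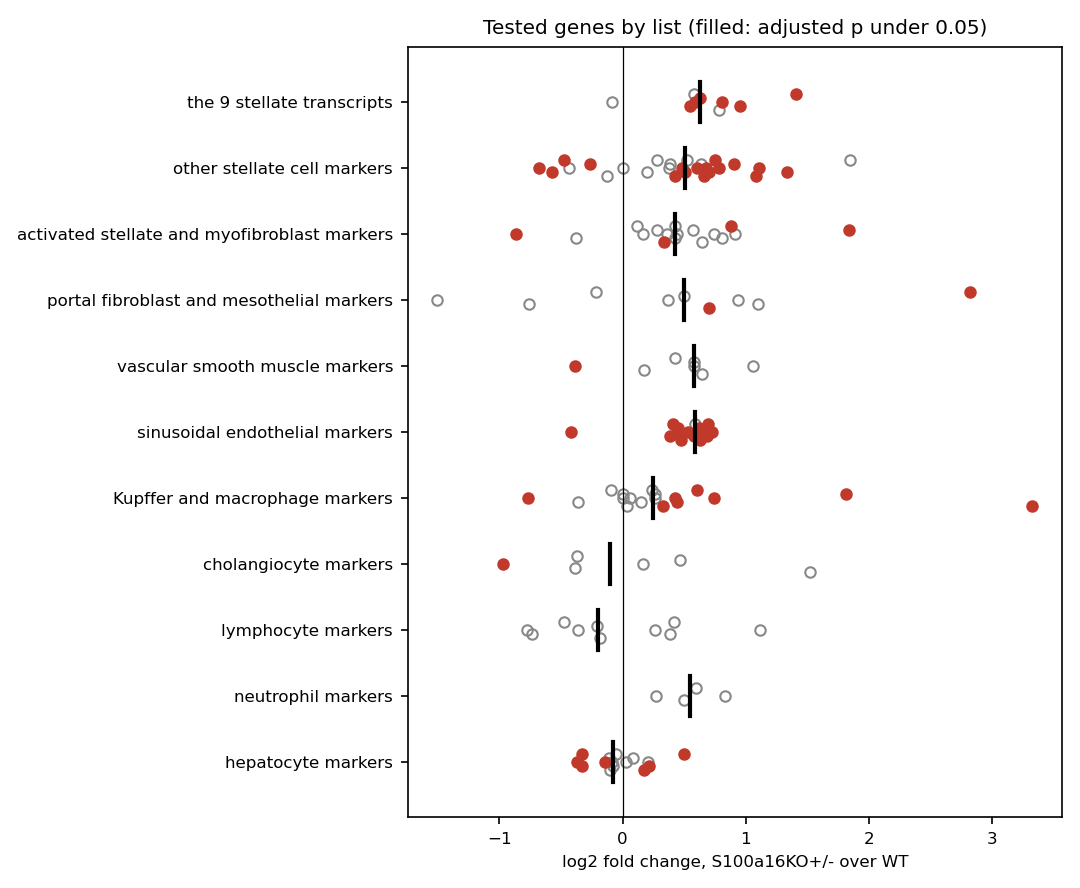
Log2 fold change of S100a16KO+/- over WT for every tested gene (points) of the 9 stellate transcripts and of 10 cell type lists, with the list median as a bar. Red points have an adjusted p under 0.05. The stellate transcripts and the endothelial markers have medians of 0.63 and 0.58, and the hepatocyte markers one of -0.08. Vascular smooth muscle, neutrophil and portal fibroblast markers have medians of 0.58, 0.55 and 0.50, over 7, 4 and 9 tested genes.

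For those transcripts whose mean reached 1 CPM, the genes with the most similar course over the 6 libraries were sought among 11938 tested genes, by the mean absolute difference of standardised log2(CPM + 1) values. Nearest to Dcn were Egfr, Ces3b and Hamp (differences of 0.0351, 0.0412 and 0.0433 SD), of which Egfr had a log2 fold change of 0.91. Nearest to Lrat were Dnajb5, Snhg15 and Uap1, and nearest to Reln were Clec14a, Tcaf1 and Sdf2. Colec12, Cpsf1 and Agrn lay nearest to Lum, and Gstk1, Lrrcc1 and Cnpy2 to Des. Lmf2, Cebpb and Setd1b lay nearest to Ecm1, and Rnf125, Lyz2 and 5430416N02Rik to Hgf. The stellate transcripts described here were left out of the genes searched, so whether they lie near one another was not tested. Among the nearest genes named, none was a further stellate marker of the lists used, and Lyz2 was the 1 gene from a cell type list. With 6 libraries in 2 groups, such likeness mostly records that a gene differs between the genotypes.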

How the data were processed

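All 6 libraries were assigned to WT or S100a16KO+/- from their titles. Per the labels, poly(A)-selected RNA was made into strand-marked libraries with molecular identifiers and read in pairs. The submitters' processing notes name cutadapt 1.9, HISAT2 2.0.4, UMI-tools, StringTie 1.3.4d, DESeq2, edgeR and mm10, without roles, and the annotation and the strand setting of the counting are not given in the sources used here. The authors deposited estimated counts per gene, not scaled for library size, and FPKM values, scaled for length and library size. Low counts pile up at 4, so 1 fragment is worth about 4 counts, and a count of 0 was taken to allow 3 fragments, or 12 counts. Of the table's gene identifiers, 25655 are in GENCODE M21 on GRCm38, 89.7% of them at the same position, including the 9 genes described. Annotated genes that overlap them held at most 15 counts in any library.

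Counts were compared with edgeR 4.0.16 (R 4.3.3) after TMM scaling and filterByExpr, by a robust quasi-likelihood test, two-sided, with Benjamini-Hochberg adjustment over 15957 genes. In simulated counts for this comparison (15530 genes tested), 31 of 48 changes of 2-fold (64.6%) and 21 of 48 of 1.5-fold (43.8%) were recovered, with 6 false calls. Far fewer genes were changed there (48, 48, 45 and 44 at 1.5, 2, 4 and 8-fold) than were called in the data (1853 higher and 1790 lower). The adjustment for multiple testing depends on that number, so these shares need not hold for the data. The 9 genes and the lists were chosen with earlier results of these data known, so list counts are descriptions beside those of all tested genes. Some lists share genes, among them Bgn, Pdgfra, Vim, Nes, Tgfb1 and Eng, so the counts of different lists are not independent. Genes named are the 9, S100a16, members of the lists where their list is described (with up to 4 of the highest mean CPM and those called with a 2-fold change), and, for each of the 9 with at least 1 CPM, the 3 genes nearest in profile. Which other list members serve as examples was chosen after their values were seen. Alternatives were DESeq2 1.42.0, limma 3.58.1 on log2 FPKM, RLE factors, other filters, counts divided by 4, a replicate block and leaving out libraries. Leaving out WT replicate 1 and S100a16KO+/- replicate 2 together was chosen after the data were seen. Values of 2 list genes are not reported here.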

Additional observations from a re-analysis of the deposited data

How the results depend on the processing

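Dcn, Lum, Lrat and Ecm1 remained higher at an adjusted p under 0.05 under every alternative in which they were fitted, as did Reln and Hgf with all but limma on FPKM. With limma on log2(FPKM + 1), Reln (log2 fold change 0.13) and Hgf (0.27) did not pass, and 4 of the 9 were called. With log2(FPKM + 0.1), Reln (0.43) did not pass, and 5 were called. A pseudocount of 1 exceeds the FPKM of most of these genes and shrinks their log2 values by construction. With a mean FPKM of at least 1 required, Dcn and Ecm1 alone were fitted and 2 were called, and by the rule of an unadjusted p under 0.05 with a 2-fold change 1 was called. Lower calls among all genes numbered 1067 and 1044 with limma on log2(FPKM + 1) and log2(FPKM + 0.1), against 1790, and with the FPKM minimum there were 1165 higher, against 1853, and 1063 lower. When single libraries were omitted, estimates ran from 0.88 to 0.99 for Dcn, 1.24 to 1.52 for Lum, 0.77 to 0.86 for Lrat, 0.46 to 0.66 for Reln, 0.45 to 0.65 for Ecm1 and 0.50 to 0.72 for Hgf. It ran from 0.45 to 0.74 for Des, 0.51 to 1.21 for Pdgfrb and -0.51 to 0.69 for Ngfr. Ngfr, not called in any fit, also turned its sign with the replicate block (0.0569) and with limma on log2(FPKM + 0.1), where it was 0.0018, and was not fitted with counts divided by 4. Same-numbered libraries did not deviate together (correlations of -0.05, -0.02 and 0.05). No pairing by number was thus seen, though correlations over 3 libraries per genotype cannot exclude a shared litter or day. The replicate block left 6 of the 9 called and 1566 higher and 1516 lower genes in all, and 4 retinoid genes called higher in place of 7. Depth limits Ngfr, Pdgfrb, Des and Lum, with about 3 to 39 fragments per library.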
